A study of Mus musculus with 3 samples.

Results

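The potassium channel genes of the mouse utero-tubular junction are described here across mating states. They were taken as all non-control probes whose gene name in the array files begins with Kcn, further letters and a digit, which gave 84 genes and 123 probes of 27670 genes and 41174 probes on the array. The names cover pore-forming subunits, auxiliary subunits and 1 transcript that codes for no channel, Kcnq1ot1, a long RNA read antisense from within the Kcnq1 locus. The choice used names only and no measured value, although Kcne2 was already known to be much lower after normal mating.

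The utero-tubular junction is the narrow passage between uterus and oviduct. Total RNA was taken from junctions of adult CD-1 females in estrus, in 3 groups of 1 pool each: 10 unmated females, 10 females that mated with a vasectomized male, and 10 whose mate was a normal male. Each pool was labelled with Cy3 and hybridised to 1 array, so the comparisons ask what mating, and mating that delivers sperm, change at this site. With no replicate array there is no test and no error between animals, and every difference below is between single pools. The sources used here do not give how long after mating tissue was taken. Levels are scaled signals, meaning the processed spot signal after each array was set to the same 75th percentile, and they are compared only within a probe. The only spread available is that between repeated spots, with a median SD of 0.0573, 0.0644 and 0.0543 on the log2 scale for the not mated, vasectomized-mated and normal-mated arrays.

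Potassium channels let potassium leave or enter cells along its gradient and so set the membrane voltage. In epithelia that voltage drives chloride, sodium and water transport into or out of the lumen, and in smooth muscle it limits calcium entry and contraction. Pore-forming subunits fall into voltage-gated, calcium- or sodium-activated, inwardly rectifying and tandem-pore classes. Auxiliary subunits bind the pores and change how they open: Kcne and Kcnab proteins and the Kcnip calcium sensors act on voltage-gated pores, and Kcnmb proteins act on the large-conductance calcium-activated pore Kcnma1. In a pool of whole tissue, fewer cells of a type and less RNA per cell cannot be told apart.

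The promoters of 3 members are shown as examples of genes that differed in unlike ways between the arrays: Kcne2, lower on both mated arrays, Kcnn4, lower after vasectomized and higher after normal mating, and Kcnk13, high only on the vasectomized-mated array. They are RefSeq sequences of GRCm38.p6, 250 bases before to 50 after the start, and 62 of 84 members matched an entry by symbol. RefSeq lists 2 starts for Kcne2, of which the first is shown. Capitals mark ACGTG or its reverse complement, the core of hypoxia response elements, searched on both strands.
Kcne2, chr16:92292139-92292438, plus strand: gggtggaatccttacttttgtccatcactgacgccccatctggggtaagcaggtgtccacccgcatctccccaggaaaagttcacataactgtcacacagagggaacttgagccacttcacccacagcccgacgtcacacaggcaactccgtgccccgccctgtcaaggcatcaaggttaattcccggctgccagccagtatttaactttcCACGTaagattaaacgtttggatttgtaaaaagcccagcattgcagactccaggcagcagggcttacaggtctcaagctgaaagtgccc
Kcnn4, chr7:24370013-24370312, plus strand: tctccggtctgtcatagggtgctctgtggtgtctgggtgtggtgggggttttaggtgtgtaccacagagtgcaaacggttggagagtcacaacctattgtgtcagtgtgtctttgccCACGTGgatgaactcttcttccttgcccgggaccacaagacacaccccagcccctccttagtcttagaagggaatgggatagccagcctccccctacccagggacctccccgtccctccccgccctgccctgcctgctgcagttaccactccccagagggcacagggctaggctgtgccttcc
Kcnk13, chr12:99964249-99964548, plus strand: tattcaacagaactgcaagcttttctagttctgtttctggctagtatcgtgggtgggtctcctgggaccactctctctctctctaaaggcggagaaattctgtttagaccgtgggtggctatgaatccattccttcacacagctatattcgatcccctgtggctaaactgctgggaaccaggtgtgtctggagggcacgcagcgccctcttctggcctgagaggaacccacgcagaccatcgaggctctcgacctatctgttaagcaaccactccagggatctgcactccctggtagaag
The core stood at position 212 of the Kcne2 sequence and, on both strands in overlap, at positions 118 and 119 of the Kcnn4 sequence, and it was not in the Kcnk13 window. Of 32851 promoters of this length, 19.6% held it. None of the 3 windows held TATAAA (13.6% of all promoters), CCAAT (37.4%), TGANTCA, the AP-1 motif (7.81%), or TGTTCT, a half-site of the progesterone and glucocorticoid receptors (19.0%). These matches describe the letters only. The GC content was 53.0%, 59.7% and 52.7% in the same order, against a median of 52.7% over all promoters.

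The arrays shared 1 slide and 1 scan, and no spot was saturated. Well above background were 68.0%, 65.9% and 70.7% of non-control spots on the not mated, vasectomized-mated and normal-mated arrays. The 75th percentile signals were 874, 295 and 708. The mean log2 signal of 8 spike-in probes stood 2.69, 5.39 and 3.21 above that percentile, so the tissue signal of the vasectomized-mated array was low against its spike-ins. The part of this in the results was not tested. With spike-in scaling, the median gene compared would stand at -2.58 (log2) after vasectomized mating and at -0.59 after normal mating, against 0.18 and -0.05 with the scaling used here.

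Of the 84 genes, 47 were well above background on all 3 arrays, 16 on 1 or 2, and 21 on none. The share on none was 25.0%, beside 26.7% of all genes on the array. Detection differed between classes. All 15 auxiliary subunits were above background on at least 1 array and 14 of them on all 3. Of 36 voltage-gated pore genes 12 were at background throughout, among them Kcna3, Kcna6, Kcnc1, Kcnd1, Kcnh5, Kcnh7, Kcnh8, Kcnq3, Kcns1, Kcns2 and Kcnv1. Of 14 inward rectifier genes 7 were at background, Kcnj2, Kcnj3, Kcnj5, Kcnj6, Kcnj11, Kcnj12 and Kcnj14. The other two were the calcium-activated Kcnn3 and the tandem-pore Kcnk2. A probe at background limits only what this array could see.

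**Figure D1:**
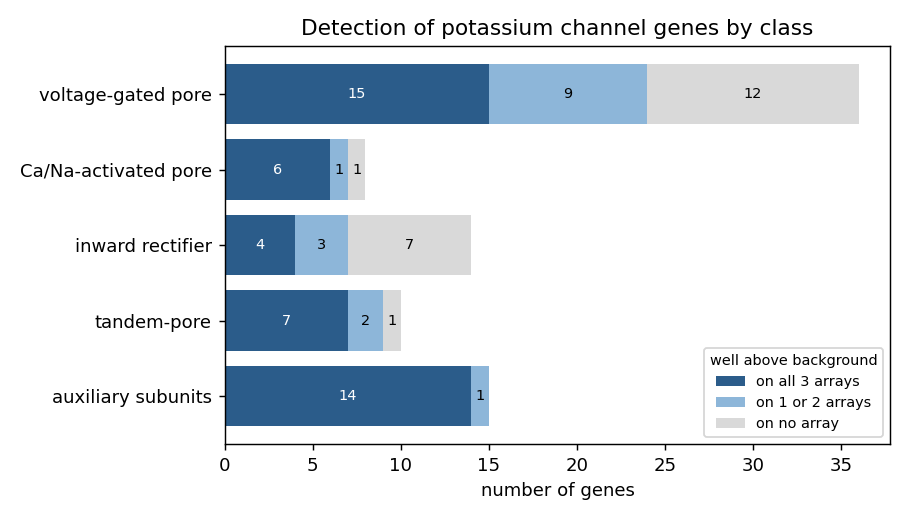
Number of potassium channel genes in each class (horizontal axis) that were well above background on all 3 arrays, on 1 or 2, or on none; Kcnq1ot1 is left out. Auxiliary subunits were detected throughout except for 1 gene, whereas 7 of 14 inward rectifiers and 12 of 36 voltage-gated genes were at background on every array.

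After mating with normal males, potassium channel genes were more often lower than higher. Of 59 that could be compared with the not mated array, 18 were at least 2-fold lower and 7 at least 2-fold higher, and 34 did not reach 2-fold. Of all genes compared, 23.0% passed 2-fold in either direction. Among all 19303 genes compared, 13.2% were at least 2-fold lower and 9.81% higher, against 30.5% and 11.9% of the members. The median log2 ratio was -0.37 for the members and -0.05 for all genes. The 18 lower genes included Kcne2, Kcne4, Kcnip1, Kcnip3, Kcnip4, Kcnmb1, Kcnn2, Kcnj1, Kcnj9, Kcnj10, Kcna5, Kcnd2, Kcnf1, Kcng3, Kcnh1, Kcnv2 and Kcnq1ot1. The 7 higher genes were Kcnmb2, Kcnn4, Kcnj16, Kcnk7, Kcnk12, Kcnk16 and Kcnc2. With normexp background correction, which compresses dim signals, 6 of 59 were 2-fold lower and 4 higher (4.72% and 6.92% of all genes). Among the genes it took below 2-fold were Kcnip1 (-0.61), Kcnip3 (-0.69), Kcnip4 (-0.38), Kcnmb1 (-0.91), Kcnn2 (-0.92), Kcng3 (-0.23), Kcnh1 (-0.94), Kcnj16 (0.73) and Kcnk16 (0.75). Kcnn4 fell just below the threshold (0.998). Among the 24 members with a mean scaled signal of 100 or more, 5 were lower and 5 higher, beside 7.87% and 9.76% of all genes as bright, so most of the lower calls lay in dim genes.

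After mating with vasectomized males the balance was the other way. Of 59 genes compared with the not mated array, 18 passed 2-fold upward and 10 downward, beside 42.4% of all genes in either direction. These shares, 30.5% and 16.9%, lay near those of all 19313 genes compared, 25.8% and 16.5%. The median log2 ratio was 0.40, beside 0.18 for all genes. The 18 higher genes included Kcnab1, Kcne3, Kcnip2, Kcnip3, Kcnip4, Kcnmb2, Kcnt1, Kcnj4, Kcnj8, Kcnj16, Kcnk7, Kcnk13, Kcnk16, Kcna1, Kcna5, Kcna7 and Kcnb2. The 10 lower genes were Kcne2, Kcnip1, Kcnn4, Kcnj1, Kcnk1, Kcnd2, Kcnf1, Kcnh1, Kcnh3 and Kcnq1. With spike-in scaling, 3 of the 18 higher genes kept their sign, Kcnj16 and Kcnk13 among them. Kcnk16 and Kcnb2 had no ratio with it, and the other 13 turned negative. Each "higher" given below for those 13 thus does not hold with spike-in scaling. All 10 lower genes kept their sign with it. Quantile normalization kept 17 of the 18 higher genes at 2-fold or more, but like the scaling used here it sets the arrays to a common level. Normexp correction gave 2-fold or more for all 18 higher genes and for 4 of the 10 lower genes. It also moved the median of all genes from 0.18 to 0.49, with 31.3% of all genes higher and 9.33% lower. Members short of 2-fold rose past it, such as Kcnj9 (0.08 to 1.07) and Kcnab3 (0.28 to 1.24). The normexp result is thus no separate support for the 18 higher genes. Of the lower genes, normexp correction left Kcnj1 at -0.16, Kcnd2 at -0.81 and Kcnf1 at -0.45, and gave Kcnip1 and Kcnh1 no ratio.

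Between the mated arrays, 26 of 54 genes were at least 2-fold lower after normal than after vasectomized mating and 6 were higher, beside 42.7% of all genes in either direction. The shares were 48.1% and 11.1%, against 28.0% and 14.7% of all 18991 genes compared, and the medians were -0.97 and -0.27. Of 47 members above background on all 3 arrays, 28 had their highest level on the vasectomized-mated array, 11 on the not mated one and 8 on that from normal mating. Of all 17207 such genes, 46.9% were highest on the vasectomized-mated array, against 59.6% of the members. The normal-mated array was the lowest for 28 of the 47, or 59.6%, against 34.9% of all genes. With spike-in scaling the balance between the mated arrays turned, to 37 higher and 3 lower of 58, as it did for all genes (79.0% higher and 1.27% lower). The 3 comparisons share their arrays pairwise and are not independent.

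**Figure D2:**
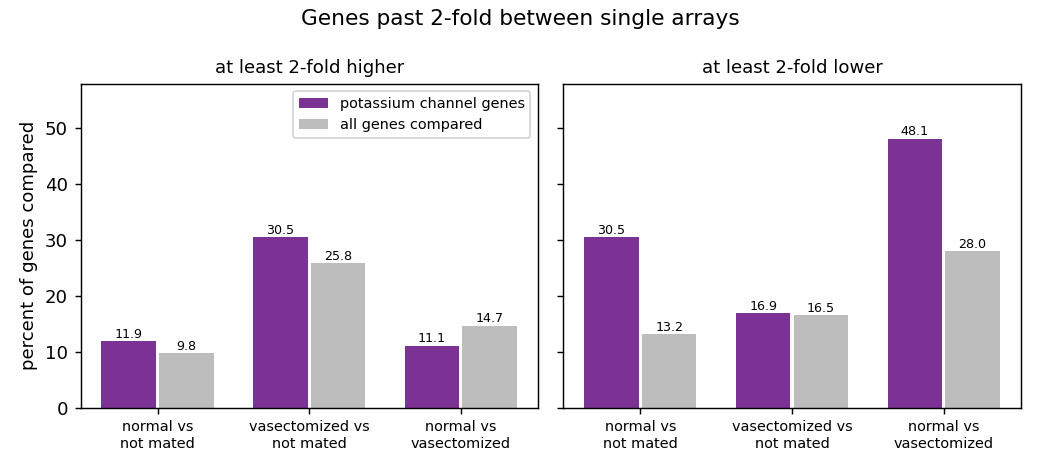
Percent of genes compared that were at least 2-fold higher (left) or lower (right) in each pair of arrays, for potassium channel genes and for all genes compared, 1 array per group and no error bars. The share of lower genes is above that of all genes when the normal-mated array is set against either other array (30.5% against 13.2%, and 48.1% against 28.0%), and close to it for vasectomized-mated against not mated (16.9% against 16.5%).

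Among the auxiliary subunits, 6 of 15 were at least 2-fold lower and 1 higher after normal mating, while 2 were lower and 6 higher after vasectomized mating. Of all genes, 13.2% were lower and 9.81% higher after normal mating, and 16.5% and 25.8% after vasectomized mating, and the counts of other classes below stand beside the same shares. Kcne2, a single-span subunit that holds Kcnq1 open in gastric and other epithelia, had the lowest ratio of all members. Its scaled signal was 1061 on the not mated, 97.5 on the vasectomized-mated and 18.9 on the normal-mated array. It was thus 10.9-fold lower after vasectomized mating (log2 ratio -3.44) and 56.0-fold lower after normal mating (-5.81), and 5.15-fold lower on the normal-mated than on the vasectomized-mated array. Of 19303 genes compared after normal mating, 7 stood at or below its ratio. Normexp correction left it at -4.12 and -2.52. Its 1 probe (A_51_P153132) lies at chr16:92348256-92348315 on the plus strand of mm7, the build of the array's annotation.

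The pore that Kcne2 is best known to join in epithelia is Kcnq1, and the inositol transporter Slc5a3 is known to bind that complex. Kcnq1 stood at 4242, 1063 and 2719 on the not mated, vasectomized-mated and normal-mated arrays, which is 3.99-fold lower after vasectomized mating (-2.00) and 1.56-fold lower after normal mating (-0.64). A second Kcnq1 probe, at chr7:139684939-139684998 of mm7, gave 0.41 after vasectomized mating, but the array annotation places it on the minus strand, opposite to the first, so it may not read the same transcript. Kcnq1ot1 stood at 712, 359.5 and 327 in the same order, a log2 ratio of -0.99 after vasectomized and -1.12 after normal mating. Slc5a3 was lower in both cases, at -1.88 and -1.38, with -1.69 and -1.36 by its second probe.

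Of the other Kcne genes, Kcne4 was also 2-fold lower after normal mating and Kcne1, Kcne1l and Kcne3 were not. Kcne3, which keeps Kcnq1 open in gut and airway cells, stood at 11235 on the not mated, 52768 on the vasectomized-mated and 14893 on the normal-mated array. It was 4.70-fold higher after vasectomized mating (2.23, with 2.17 by its second probe) and at 0.41 after normal mating (0.35 by the second probe). Only the vasectomized-mated array was high for this gene. Kcne4, an inhibitory subunit found in smooth muscle among other tissues, stood at 332, 207 and 59.6, and was 5.56-fold lower after normal mating (-2.47) and at -0.68 after vasectomized mating. Kcne1, a partner of Kcnq1 in heart and inner ear, stood at 1304, 1268 and 721, and its ratios of -0.04 and -0.85 did not reach 2-fold. Kcne1l, now also called Kcne5, was dim on all arrays, between 19.7 and 28.3.

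The Kcnip calcium sensors, which bind Kv4 pores, had no common direction. Kcnip4 stood at 36.8, 155 and 12.1 on the not mated, vasectomized-mated and normal-mated arrays, so it was 4.22-fold higher after vasectomized mating and 3.03-fold lower after normal mating, the second of which did not reach 2-fold with normexp correction (-0.38). Kcnip3 stood at 138, 408 and 62.5 by its brighter probe, with log2 ratios of 1.56 and -1.15, but its other probe gave -1.09 after vasectomized mating and -1.95 after normal mating. Its direction after vasectomized mating thus differs between probes. Kcnip1 was 3.09-fold lower after normal mating, from 57.4 to 18.6, and at least 4.60-fold lower after vasectomized mating, where it was not well above background. Kcnip2, at 13.8, 29.8 and 13.0, was 2.16-fold higher after vasectomized mating and at -0.09 after normal mating.

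The subunits of the large-conductance calcium-activated channel differed in direction. The probe of the pore gene Kcnma1 read 9.35 without mating and 5.94 after normal mating and was not well above background after vasectomized mating. Before scaling the first 2 were 14.4 and 7.42, near the lowest signals well above background on those arrays, 13.2 and 6.59. This 1 probe thus says little about the level of the pore. Kcnmb2, which inactivates this channel, was higher on both mated arrays, at 56.0, 269 and 238, or 4.80-fold after vasectomized and 4.26-fold after normal mating. Kcnmb1, the smooth muscle subunit that raises calcium sensitivity, stood at 158, 88.9 and 63.6, with log2 ratios of -0.83 and -1.31. Its second probe gave bounds of -0.01 and -1.20. Kcnmb4 stood at 0.98 and 0.62 and did not reach 2-fold. Lrrc26, an epithelial subunit of the same channel, was 5161 on the not mated, 931 on the vasectomized-mated and 4586 on the normal-mated array (log2 ratios -2.47 and -0.17). Of the Kcnab subunits of Kv1 pores, Kcnab1 was 2.90-fold higher after vasectomized mating (392, 1139 and 541), and Kcnab2 and Kcnab3 stayed within 2-fold in both matings.

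**Figure D3:**
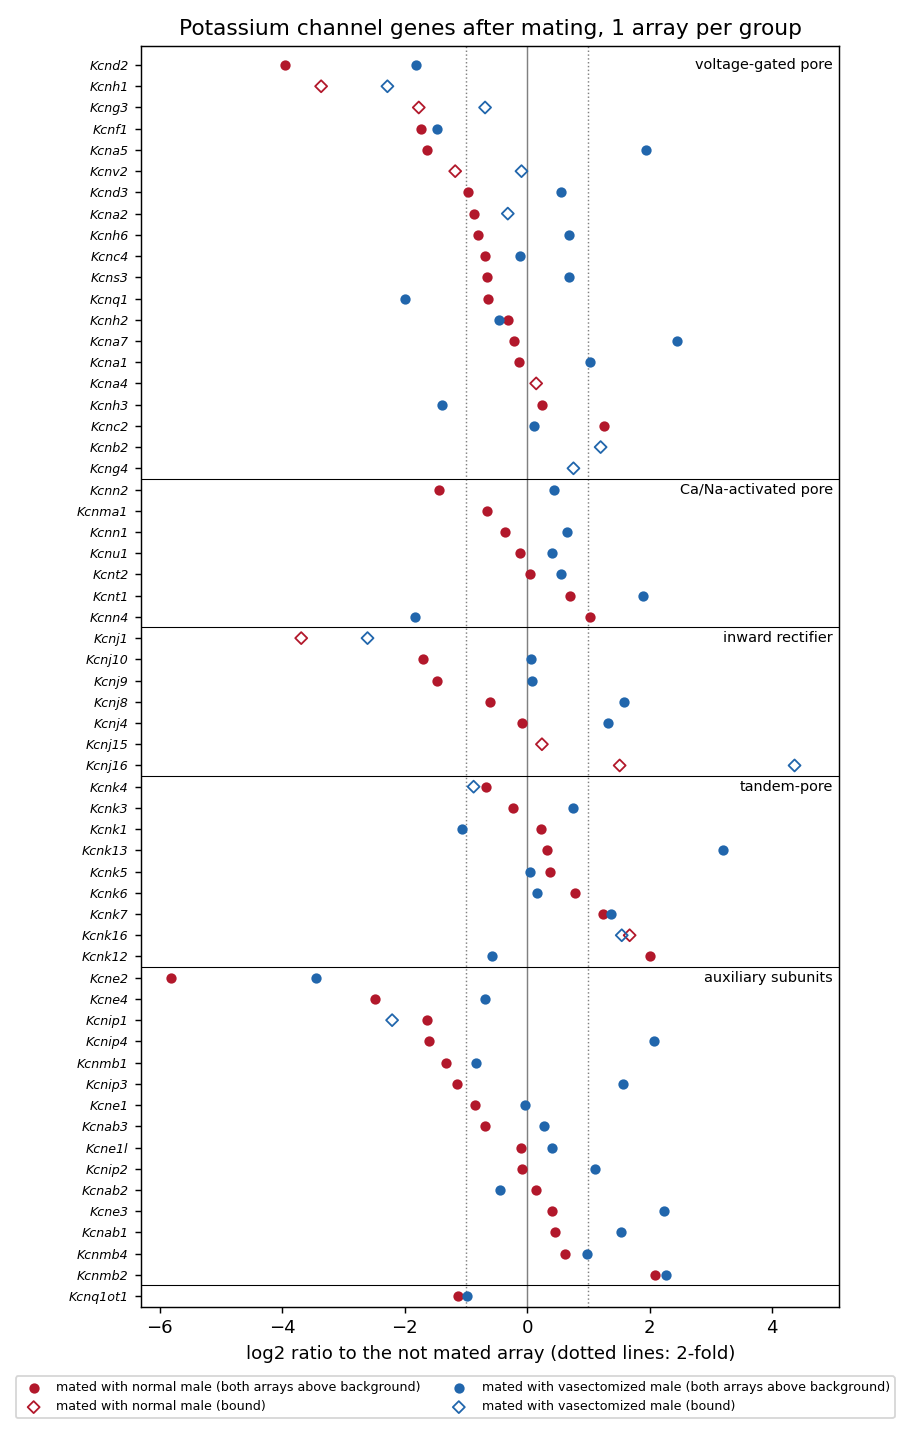
Log2 ratio of each mated array to the not mated array for potassium channel genes with a ratio, by class and ordered by the ratio after normal mating; filled circles had both arrays above background and open diamonds are bounds. Kcne2 lies lowest (-5.81 and -3.44), Kcnj16 has the highest bound after vasectomized mating (4.37), and Kcnn4, Kcnip3, Kcnip4 and Kcna5 lie past 2-fold on opposite sides, although the second Kcnip3 probe was lower after both matings.

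Among the voltage-gated pore genes, 7 of 20 compared passed 2-fold downward and 1 upward after normal mating (median log2 ratio -0.74). Kcnd2, the Kv4.2 pore of transient potassium currents, had the largest measured difference from the not mated array in this class. It stood at 219 on the not mated, 62.7 on the vasectomized-mated and 14.1 on the normal-mated array, 3.50-fold and 15.5-fold lower, and its second probe gave log2 bounds of -1.71 and -2.80. Its relative Kcnd3 was dim, at 28.0, 41.2 and 14.3. Kcnf1, a silent subunit that forms channels only with Kv2 pores, was 178, 64.3 and 53.8, or 2.77-fold and 3.30-fold lower. Kcnh1, an ether-a-go-go channel, was 54.2 on the not mated array and not well above background on either mated array, which makes it lower by 4.85-fold or more and by 10.3-fold or more, with smaller bounds by its second probe (-0.78 and -1.86). Kcng3 and Kcnv2, both silent modifiers, were at least 3.40-fold lower and at least 2.25-fold lower on the normal-mated array.

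The Kv3 gene Kcnc2 was the 1 voltage-gated gene at least 2-fold higher after normal mating. It stood at 221, 240 and 528, a log2 ratio of 1.26 (from a bound of 0.78 to 1.39 over 3 probes), and at 0.12 after vasectomized mating.

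After vasectomized mating 5 of 22 voltage-gated genes passed 2-fold upward and 5 downward (median 0.01). The Kv1 genes Kcna5 and Kcna7 were high on the vasectomized-mated array. Kcna7 stood at 46.5 on the not mated, 253 on the vasectomized-mated and 40.2 on the normal-mated array, 5.45-fold higher and then at -0.21. Kcna5, a Kv1.5 pore known from vascular smooth muscle, stood at 21.9, 83.9 and 7.06, 3.83-fold higher after vasectomized and 3.11-fold lower after normal mating. Normexp correction kept the first at 1.37 and left the second at -0.26, where its signal on the normal-mated array is 7.06. Kcnb2 was above background only on the vasectomized-mated array, at 19.8, and at least 2.30-fold higher than on the not mated array.

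Kcnh2, a pore known from heart and smooth muscle, stood at 474, 345 and 381 and did not reach 2-fold in any comparison. Kcnh3 was 40.6, 15.5 and 48.1, a log2 ratio of -1.39 after vasectomized mating that became 0.54 with normexp correction. Of other genes of the class, Kcna1, Kcna2, Kcna4, Kcnc4, Kcng4, Kcnh6 and Kcns3, did not reach 2-fold against the not mated array where they had a ratio, except Kcna1 after vasectomized mating (1.02). Kcna4 had no ratio after vasectomized and Kcng4 none after normal mating. Kcnq5 was above background only on the normal-mated array and had no ratio.

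Kcnn4, the intermediate-conductance calcium-activated channel of secretory epithelia and leukocytes, had opposite ratios after the 2 matings. Its scaled signal was 1384 on the not mated, 387 on the vasectomized-mated and 2828 on the normal-mated array. It was 3.57-fold lower after vasectomized mating (-1.84), 2.04-fold higher after normal mating (1.03), and 7.30-fold higher on the normal-mated than on the vasectomized-mated array, the highest ratio of any member in that comparison. The ratio of 1.03 lies at the 2-fold threshold, and its opposite sign was not tested. Normexp correction (0.998) and quantile normalization (0.98) put it just below 2-fold. The neuronal relative Kcnn2 was read by 10 spots of 1 probe, of which 8 or 9 an array were free of outlier marks. Their scaled mean was 156, 211 and 57.2, and the SD between spots was 0.0586, 0.0529 and 0.0501 on the log2 scale. The log2 ratio of -1.44 after normal mating is thus far beyond the spread between spots, which says nothing about animals, and the ratio of 0.44 after vasectomized mating did not reach 2-fold. Kcnt1, a sodium-activated pore, was 21.8, 80.9 and 35.3, or 3.72-fold higher after vasectomized mating (a bound of 1.12 by a second probe). Kcnn1, Kcnt2 and Kcnu1 did not reach 2-fold after either mating by their brightest probes, although a second Kcnt2 probe gave 1.35 after vasectomized and -1.36 after normal mating.

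**Figure D4:**
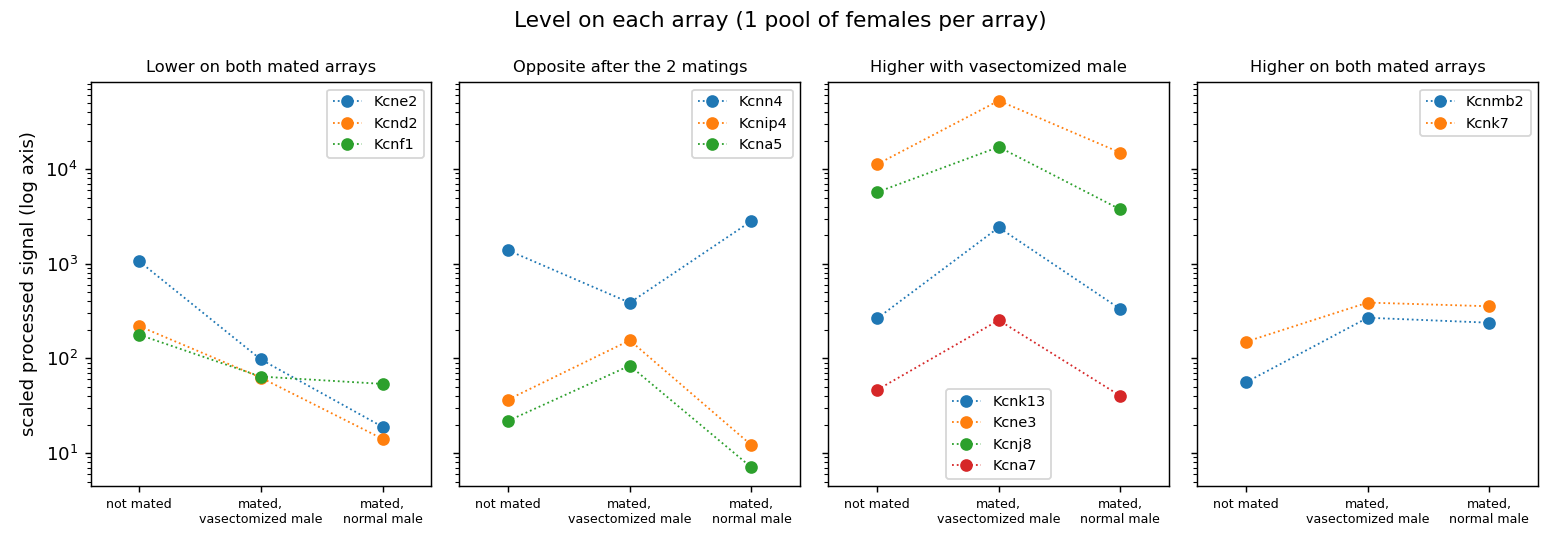
Scaled processed signal (log axis) of 12 potassium channel genes on the not mated, vasectomized-mated and normal-mated arrays, 1 pool per array, with dotted lines only joining the values of a gene; heights are not comparable between genes. Kcne2 drops from 1061 to 97.5 and 18.9, Kcnn4 is lowest and Kcnip4 and Kcna5 highest on the vasectomized-mated array (after normal mating these last genes stood at -0.38 and -0.26 with normexp correction), and Kcnk13, Kcne3, Kcnj8 and Kcna7 peak there.

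The 7 inward rectifiers detected gave some of the largest bounds. Kcnj8, the Kir6.1 pore of ATP-sensitive channels in vascular smooth muscle and pericytes, stood at 5694 on the not mated, 17118 on the vasectomized-mated and 3742 on the normal-mated array. It was 3.01-fold higher after vasectomized mating (1.59, and 2.78 by its second probe) and at -0.61 after normal mating (-0.37 by the second probe). Its regulatory partner Abcc9 stood at 276, 1101 and 146, with 2.00 (up to 3.12 by another probe) and -0.92. With the scaling used here, both genes of this channel were highest on the vasectomized-mated and lowest on the normal-mated array. After vasectomized mating, quantile normalization put Kcnj8 at 0.98 and spike-in scaling put it at -1.11. Kcnj16, an acid-sensitive Kir5.1 subunit of transporting epithelia, was at background on the not mated array and at 177 and 24.5 on the vasectomized-mated and normal-mated arrays, at least 20.7-fold higher on the former and at least 2.85-fold on the latter. This rests on 1 of 3 Kcnj16 probes, as the others were at background on all 3 arrays. Kcnj1, the renal outer medullary channel of salt-transporting epithelia, was 67.9 on the not mated array and at background on both mated arrays, at least 6.08-fold lower after vasectomized and at least 12.9-fold after normal mating. Kcnj10, which pairs with Kcnj16 in kidney and glia, stood at 35.0, 36.5 and 10.8, 3.24-fold lower after normal mating, and Kcnj9 at 17.2, 18.2 and 6.20, 2.77-fold lower. With normexp correction Kcnj10 and Kcnj9 stood at -0.41 and -0.12 after normal mating. Kcnj4, at 28.5, 71.4 and 26.8, was 2.50-fold higher after vasectomized mating. Kcnj15 was above background only on the normal-mated array, at 10.2.

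The tandem-pore genes, whose leak channels set the resting voltage, were the class with no gene 2-fold lower after normal mating: 3 of 9 were higher and the median log2 ratio was 0.38. Kcnk12, a silent member of the THIK group, stood at 123, 82.7 and 497, 4.05-fold higher after normal mating and at -0.57 after vasectomized mating. Its closest relative Kcnk13, the THIK channel known from microglia, had the other pattern. Kcnk13 stood at 264 on the not mated, 2419 on the vasectomized-mated and 332 on the normal-mated array, 9.16-fold higher after vasectomized mating (3.19) and at 0.33 after normal mating. Kcnk7, another silent member, was higher on both mated arrays, at 150, 389 and 355 (1.37 and 1.24, with 1.35 and 0.77 by the second probe). Kcnk16, a pancreatic channel, was at background on the not mated array and at least 2.92-fold higher on the vasectomized-mated and at least 3.19-fold on the normal-mated array, where it stayed dim (25.1 and 27.5). Kcnk1, found in many epithelia, stood at 4054, 1941 and 4742, 2.09-fold lower after vasectomized mating and at 0.23 after normal mating. Kcnk5 and Kcnk6, both expressed in epithelia, did not reach 2-fold after either mating by their brighter probes. Their ratios were 0.05 and 0.16 after vasectomized and 0.38 and 0.78 after normal mating. A second Kcnk5 probe gave a bound of -1.33 after vasectomized mating. Kcnk3 and Kcnk4 did not reach 2-fold either, although a second Kcnk3 probe gave 1.91 after vasectomized mating.

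Agreement between probes of a gene differed between the comparisons. Of 13 members with several probes compared after normal mating, 3 had probes over 2-fold apart, against 6 of 14 after vasectomized mating. Between the mated arrays 6 of 11 did. After normal mating, all probes passed 2-fold downward in 4 genes and upward in 0. After vasectomized mating they did so downward in 1 gene and upward in 4. Between normal and vasectomized mating all probes passed 2-fold downward in 3 genes and upward in 0. These counts were not made over all genes.

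Beyond the Kcn names, 31 genes whose products partner, regulate or drive potassium channels were followed, of which 30 were on the array and 27 could be compared. After normal mating 3 passed 2-fold downward and 0 upward (median -0.24), among them Slc5a3 and the pacemaker channel Hcn3 (-1.07). The share of 11.1% lower stands beside 13.2% of all genes. After vasectomized mating 7 passed it downward and 4 upward (median -0.15), or 25.9% and 14.8%, beside 16.5% and 25.8% of all genes. The higher ones were Abcc9, Hcn4 (1.71), Hcn2 (1.07) and Dpp10, which passed 2-fold as a bound. The first 3 ratios are smaller than the difference in spike-in level between these arrays (5.39 against 2.69) and turn negative with spike-in scaling by their brightest probes. The lower ones were Lrrc26, Slc5a3, the kinases Wnk4 (-1.57) and Wnk1 (-1.50, probes from -2.31 to 0.21), the ubiquitin ligase Nedd4l (-1.93, probes from -1.93 to 0.17), and the potassium-chloride cotransporters Slc12a7 (-1.20) and Slc12a4 (-1.09). Atp1b1, a subunit of the sodium-potassium pump, did not reach 2-fold after either mating (-0.49 after normal, -0.58 after vasectomized mating). The cotransporter Slc12a2, which loads epithelial cells with potassium and chloride, stood at -0.11 and 0.02.

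Markers of several cell types also differed between the arrays, and their part in the potassium channel results was not tested. All 7 smooth muscle markers were above background, 3 of them at least 2-fold lower and 0 higher after normal mating (median -0.96), while after vasectomized mating 3 were lower and 2 higher (median -0.89), with Myh11 at -1.89 and -1.38. Their summed scaled signal was 254274, 677601 and 191802 on the not mated, vasectomized-mated and normal-mated arrays, led by Tagln. Acta2 stood at -0.50 after vasectomized mating by its brightest probe, with probes from -1.43 to 3.51. All 5 endothelial and all 5 stromal markers were at least 2-fold lower after normal mating, with summed signals of 5729, 9328 and 1817 and of 31974, 36075 and 11489. After vasectomized mating 3 of the endothelial markers were lower (Pecam1 at -2.30) and 1 was higher, with a median of -1.25. The higher sum there comes from Cdh5, at 2.44 by its brightest probe and -2.67 by another. Epithelial markers summed to 207129, 145673 and 343717, and 4 of 6 were higher after normal mating. Ciliated markers summed to 6513, 15550 and 26027, and all 5 were higher after normal mating. Of the uterine gland markers 3 of 4 were found, summing to 79966, 6493 and 7331, with Prss29 at -4.55 after normal and -6.05 after vasectomized mating. Foxa2, the marker that was higher, stood at 1.65 and 1.78. Both oviduct secretory markers were above background on all arrays. Pax8 stood at 476, 35.1 and 252, or -3.76 after vasectomized and -0.92 after normal mating. Ovgp1 stood at 0.44 and 0.26 by its brightest probe, with probes from -2.99 to 0.44 after vasectomized mating. Neutrophil markers summed to 122, 48933 and 33925, T and NK cell markers to 728, 218 and 98.7, and mast cell markers to 1242, 448 and 188. Macrophage markers summed to 2088, 14088 and 4404, but the sum after vasectomized mating was mostly Adgre1 (11565). Adgre1 stood at 3.73 after vasectomized and -0.02 after normal mating, and Csf1r at -0.91 and -0.94. Of the 4 macrophage markers, 2 were at least 2-fold higher after vasectomized and 1 after normal mating, and 0 were lower. Nerve markers summed to 162, 408 and 193, with Snap25 at background on the not mated and vasectomized-mated arrays. Ovary markers summed to 254, 2460 and 410. Of these 4 markers, 3 were at least 2-fold higher after vasectomized and 2 after normal mating, and 0 were lower. Cyp11a1 was at background on the not mated array and at 1267 and 44.8 on the vasectomized-mated and normal-mated arrays.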

How the data were processed

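The deposited intensity values are Agilent Feature Extraction processed signals on a linear scale, to which background and spatial corrections were applied array by array, per the file headers, which name version 10.5.1.1. The submitters' processing notes name version 9.5.3. The array annotation uses mm7, per the file headers.

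Log2 values were averaged over the spots of a probe without outlier marks, and the 75th percentile over the non-control spots of the array was subtracted. Scaled signals multiply back by 567, the geometric mean of these percentiles. Symbols came from RefSeq GRCm38.p6 (104 member probes by accession, 19 by symbol). By rule, 6 probes with a current Kcn symbol but another name in the files stayed out. A gene takes its brightest probe. A ratio with 1 array not well above background is a bound that sets the dim array at the higher of the probe's own level and the lowest signal well above background on it, and was left out where it had no size. Genes count as different at 2-fold. Precision is limited by having 1 array in each group, so no test was made.

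The members, lists and tests were chosen with earlier results of these data known. Named by rule were, per comparison and direction, up to 12 members past 2-fold with the main, normexp and quantile processing, 5 bounds, all Kcne genes, Kcnq1, members with opposite ratios, up to 6 partner genes and 2 genes per marker list. Other genes named were chosen after their values were seen. The steps were tested on simulated data. Arrays were read and normalized in R 4.3.3 with limma 3.58.1, and ratios and counts were made in pandas 2.3.3 (Python 3.11.15). A few genes enter the counts but are not reported here by name.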

Additional observations from a re-analysis of the deposited data

How the results depend on the processing

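No paired analysis was possible because each group has 1 array, and no array could be left out. Depth of signal limits the dim genes. With normexp background correction the counts at 2-fold were 4 higher and 6 lower after normal mating (6.92% and 4.72% of all genes), and 4 lower after vasectomized mating (9.33%). Without a filter on dim probes they were 11 higher after normal mating, and 43 lower between normal and vasectomized mating. These 2 counts include genes at background on both arrays. The shares of all genes without the filter were not counted, so they cannot be read as particular to the members. Chosen after seeing the data, a minimum mean scaled signal of 100 left 5 lower after normal mating (7.87% of all genes as bright). It left 8 higher and 4 lower after vasectomized mating (25.0% and 16.7%), and 10 lower between the mated arrays (23.6%). Spike-in scaling, also chosen after seeing the data, gave 3 higher and 29 lower after normal mating (5.54% and 28.9% of all genes). It gave 1 higher and 48 lower after vasectomized mating (1.13% and 88.4%), and 37 higher and 3 lower between the mated arrays (79.0% and 1.27%). Of the 26 genes lower between the mated arrays, 9 kept their sign with it. Among genes named by rule, it reversed the log2 ratio after vasectomized mating of Kcna5 (-0.76), Kcna7 (-0.25), Kcnab1 (-1.16), Kcne3 (-0.46), Kcnip2 (-1.58), Kcnip3 (-1.13), Kcnip4 (-0.62), Kcnj4 (-1.37), Kcnj8 (-1.11), Kcnk7 (-1.32), Kcnmb2 (-0.43) and Kcnt1 (-0.80). Between normal and vasectomized mating it reversed Kcnab1 (1.11), Kcnd2 (0.033), Kcne3 (0.36), Kcne4 (0.39), Kcnip2 (0.98), Kcnj10 (0.42), Kcnj4 (0.77) and Kcnt1 (0.98). The cause was not tested. All other counts at 2-fold under quantile and cyclic loess normalization, genes above background on both arrays, the median over probes and the file's gene names lay within 1.5 times those reported. Of 571 alternative values of the 70 named ratios past 2-fold, 551 kept their sign and 513 also stayed past 2-fold. Many of these genes were named because they passed 2-fold with normexp and quantile processing, which are among the alternatives. Some other settings leave the ratio of a gene above background on both arrays as it was. These counts thus follow in part from the choice of genes and are no measure of robustness.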
